A study of Homo sapiens with 18 samples.

Results

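The genes described here are 43 genes of fatty acid, triglyceride and phospholipid synthesis. The choice was by name, with earlier results of these data known, so counts of them beside shares of all genes are descriptive. All 43 were found by their Ensembl identifiers among the 61806 genes of the deposited count table. By the step they serve, they comprise 5 genes of fatty acid synthesis, 4 desaturases, 6 genes of chain elongation, 3 regulators, 3 genes that supply glycerol 3-phosphate, 8 acyltransferases that add chains to it, 3 phosphatidate phosphatases, 2 genes of the last step of triglyceride synthesis, 2 lipases and 7 genes of phospholipid synthesis. Poly(A) RNA was sequenced from HepG2, a human hepatoma cell line with genotype WT, and from APOA4-KO, HepG2 cells with an APOA4 knockout. Each line was sampled at 0 h without treatment (21% oxygen) and after 24 h and 48 h of hypoxia at 1% oxygen, with 3 libraries in each of the 6 groups. The knockout was made with CRISPR-Cas9 and a pair of guide RNAs against APOA4 exons, and edited cells were grown from single colonies, so the edited line stands for the edit together with whatever else sets its cells apart from the parental line. All 12 hypoxia libraries are compared with 0 h cells, since no cells kept outside hypoxia for 24 h or 48 h are among the libraries, and hypoxia and time in culture cannot be told apart. Beyond their numbers, the labels do not say that the libraries of a group came from separate cultures, and the p-values measure only the spread between these libraries.

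Fatty acids are made in the cytosol from acetyl-CoA, which ATP citrate lyase releases from citrate, acetyl-CoA carboxylase turns into malonyl-CoA and fatty acid synthase joins into palmitate; elongases and desaturases then lengthen the chain and add double bonds. The chains are placed on glycerol 3-phosphate, first by glycerol phosphate acyltransferases and then by lysophosphatidate acyltransferases, and the phosphatidate formed loses its phosphate to the lipins. The resulting diacylglycerol becomes triglyceride through DGAT1 and DGAT2, or phosphatidylcholine and phosphatidylethanolamine through activated choline and ethanolamine. In hepatocytes these routes feed lipid droplets, membranes and secreted lipoproteins.

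Library totals ran from 76481820 to 91604947 counts. APOA4 transcripts were present in the edited line, with 551 to 702 counts in its 9 libraries, against 702 to 799 in HepG2 at 0 h and 1522 to 1968 in hypoxia, and the difference between the lines at 0 h was small (log2 fold change -0.23, adjusted p = 0.040). All 9 hepatocyte products examined were expressed, among them ALB at 4021 to 5713 FPKM and HNF4A at 26.2 to 37.4 FPKM. Others varied more across the libraries, with AFP at 39.8 to 480 FPKM, FGB at 22.9 to 195 FPKM and TTR at 19.0 to 78.6 FPKM. The part of this variation in the results was not tested. Of the markers of other cell types, PTPRC, CSF1R, ITGAM, CDH5, COL3A1 and DCN did not exceed 0.49 FPKM. Each of these was listed at 0 in at least 1 library. PECAM1, VWF and COL1A1 were read in every library, at no more than 1.07, 0.79 and 0.58 FPKM. CD14 and PDGFRB reached 5.25 and 6.88 FPKM. LYZ was the exception, at 600 to 1459 FPKM, and set the sum of the 5 leukocyte markers, which in the order 0 h, 24 h and 48 h spanned 605 to 608, 1110 to 1140 and 667 to 704 FPKM in HepG2, and 915 to 935, 1320 to 1410 and 1420 to 1460 FPKM in APOA4-KO; its part in the results was not tested. The summed FPKM of 5 hypoxia marker genes (CA9, EGLN3, ADM, NDRG1 and PDK1) spanned 29.3 to 31.6, 162 to 167 and 137 to 143 in HepG2 in the same order, and 51.2 to 51.4, 301 to 303 and 388 to 398 in APOA4-KO. The sum, which CA9 and NDRG1 carried, was higher in the edited line at every time, and each of the 5 genes was called higher there except PDK1 at 48 h, which was lower (-0.38, adjusted p = 3.4e-06); the part of this in the differences between the lines was not tested.

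FPKM, which divides a count by gene length and by the library total, lets genes be set side by side. In HepG2 at 0 h, SCD, the desaturase that makes oleate from stearate, had the highest level of the members at 375 ± 1.89 FPKM (SD, n = 3). It was followed by FASN at 209 ± 1.44, ACLY at 115 ± 0.725, PCYT2 at 72.5 ± 0.515, AGPAT1 at 64.7 ± 0.207 and DGAT1 at 52.0 ± 0.720 FPKM. At the other end, ME1, MGLL, AGPAT4, SCD5, LIPE and THRSP were at or below 0.10 FPKM in each of these 3 libraries, with no more than 204 counts in any of the 18. These 6 genes could not be followed with precision; a count in these data need not stand for 1 read pair, since counts of 4, 8 and 12 occurred 1.58 to 3.12 times as often as their neighbours. For most of the other 37 members, the spread within groups was narrow. Their median coefficient of variation lay between 2.37% in APOA4-KO at 0 h and 3.87% in APOA4-KO at 24 h. The highest value in a group ranged from 9.08% (PCYT1A, APOA4-KO at 48 h) to 17.8% (LPCAT2, APOA4-KO at 24 h).

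**Figure D1:**
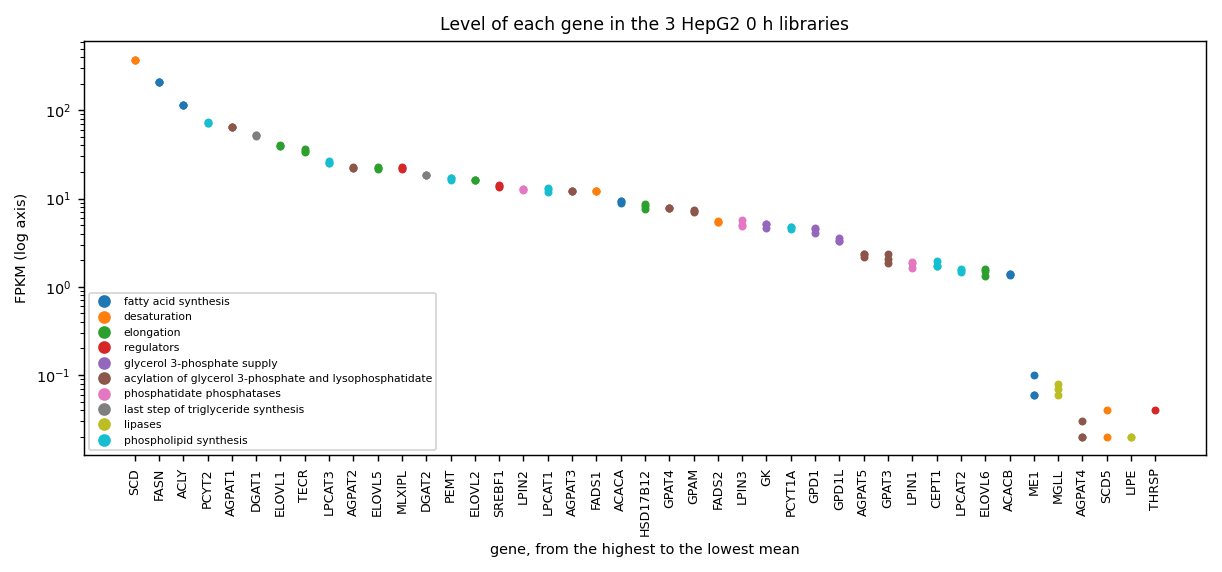
FPKM on a log axis for each of the 43 genes in the 3 HepG2 libraries at 0 h, ordered by mean and coloured by role; libraries at 0 FPKM are not drawn. Of the 43 genes, 37 lie above 1 FPKM, led by SCD at 375 FPKM, and 6 lie at or below 0.10 FPKM.

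Expression was compared with edgeR's quasi-likelihood test over all 18 libraries, and 42 of the 43 members passed its filter on low counts, the exception being THRSP. A gene is called higher or lower at a Benjamini-Hochberg adjusted p under 0.05 over the 19743 genes tested, and values per library are CPM, counts relative to the TMM-scaled library total. Values written with ± and no unit are log2 fold changes with their standard error, and a value in brackets with neither is a log2 fold change. At 0 h, APOA4-KO had 12 members higher and 15 lower than HepG2, where 12.9% and 17.6% of all genes tested were called higher and lower. At 24 h, 16 members were higher and 16 lower, against 23.6% and 24.6% of all genes. At 48 h, 15 members were higher and 18 lower, against 23.5% and 27.3% of all genes. The members' median log2 fold change at the 3 times was 0.00, 0.13 and 0.08, beside -0.01, 0.01 and -0.04 over all genes tested, and called members lay on both sides. Of the 42, 7 were higher in the edited line at all 3 times (ACLY, SCD, FADS1, FADS2, ELOVL6, HSD17B12 and GK), as were 6.72% of all genes tested, and 11 were lower at all 3 times (ELOVL1, SREBF1, GPD1, GPD1L, AGPAT1, AGPAT3, LPIN3, DGAT1, DGAT2, LPCAT3 and PEMT), as were 9.66% of all genes. Among these, the 48 h calls of FADS1, GPD1L and AGPAT3 (adjusted p up to 0.251, 0.062 and 0.073) and calls of LPIN3 were lost under some alternatives. A further 7 members were higher at 1 time and lower at another (ACACA, FASN, MLXIPL, AGPAT2, LPIN1, LPIN2 and LPCAT1), as were 10.3% of all genes. Among these 7, the calls of MLXIPL at 0 h and of LPIN1 and LPCAT1 at 48 h were lost under some alternatives. Their adjusted p reached 0.177, 0.067 and 0.421 over fits with edgeR, DESeq2 or limma. Called at none of the 3 times were 5 members (ACACB, ME1, SCD5, GPAT3 and LIPE), against 34.6% of all genes. The shares of all genes here and below are not matched to the members for count level. Of the 43 members, 37 averaged at least 500 counts. In bulk RNA, fewer cells with a transcript and less of it in each cell cannot be told apart.

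Within the lines, most members that were called lay lower in hypoxia than at 0 h. In HepG2, 5 members were higher and 21 lower at 24 h, where 11.4% and 18.3% of all genes were called, and 6 were higher and 22 lower at 48 h, where 13.1% and 14.6% were called. In APOA4-KO, 12 were higher and 18 lower at 24 h, against 21.5% and 22.8% of all genes, and 8 were higher and 26 lower at 48 h, against 23.9% and 25.9%. The members' median log2 fold change was -0.15 and -0.22 in HepG2 and -0.25 and -0.31 in APOA4-KO, while the median of all genes tested lay between -0.07 and -0.01. Lower in both lines at both times were 14 members (ACLY, ACACB, FASN, FADS2, ELOVL1, TECR, MLXIPL, GPD1, AGPAT1, AGPAT3, DGAT1, DGAT2, LPCAT3 and PCYT2), against 5.49% of all genes, and 4 were higher in all of these comparisons (GK, AGPAT5, LPIN2 and LPCAT1), against 4.04%.

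The change from 0 h in one line was set against the same change in the other. This difference in the change, counted in APOA4-KO minus HepG2, was positive (a rise larger, or a fall smaller, in APOA4-KO) for 14 members and negative for 13 at 24 h, against 16.8% and 15.4% of all genes, and positive for 11 and negative for 16 at 48 h, against 18.6% and 17.8%. When libraries were scaled by their totals alone, the median of all genes moved from -0.04 to -0.19 between the lines at 48 h, from -0.07 to -0.23 for APOA4-KO over 48 h and from -0.04 to -0.21 for the difference in the change at 48 h. The members then counted for this last comparison were 6 positive and 25 negative, so its balance of directions depends on the scaling. With RLE size factors, the members called higher and lower between the lines became 15 and 14 at 0 h and 17 and 15 at 48 h (13 and 21 at 48 h with library totals alone), and the 24 h difference in the change became 12 positive and 15 negative, so which direction held more members in these comparisons depended on the scaling too.

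Past an absolute log2 fold change of 1 in addition were 3, 6 and 9 members between the lines at 0 h, 24 h and 48 h, where 4.31%, 7.77% and 13.6% of all genes were. The corresponding counts were 2 and 1 in HepG2 at 24 h and 48 h (3.08% and 2.18% of all genes) and 6 and 8 in APOA4-KO (5.88% and 12.2%), and 1 and 5 for the difference in the change (2.59% and 7.42%). Across the 7 comparisons of 2 groups, 12 members passed both limits at least once: FADS2, ELOVL6, GPD1, GK, AGPAT2, AGPAT4, AGPAT5, LPIN2, DGAT1, DGAT2, MGLL and PCYT2. AGPAT4 and MGLL had no more than 204 counts in any library, and AGPAT4 was the only member past both limits in HepG2 at 48 h. Calls of both genes were lost under some alternatives.

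**Figure D2:**
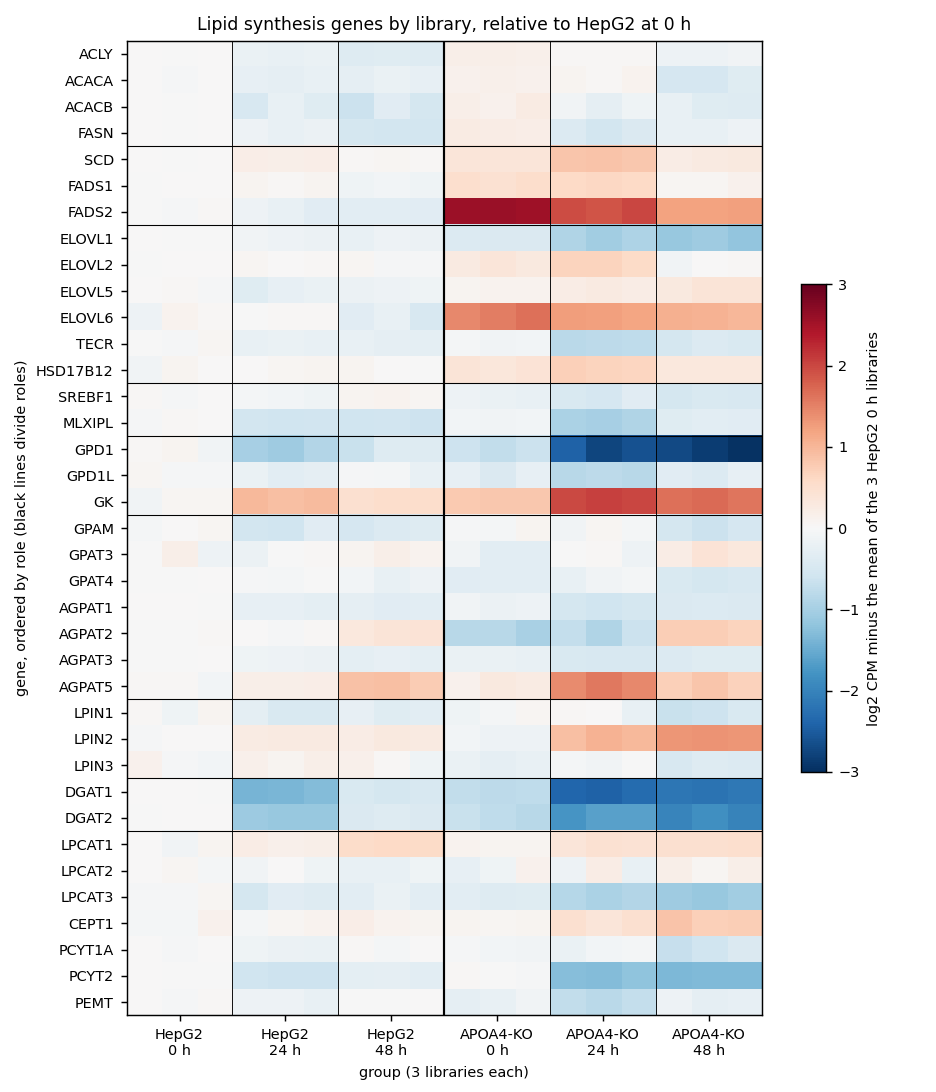
Log2 CPM of the 37 members that averaged 500 counts or more, in each of the 18 libraries, minus the mean of the 3 HepG2 0 h libraries; columns are libraries by group and rows are genes by role, red above and blue below that mean. The 3 libraries of a group look alike for each gene, and GPD1, DGAT1, DGAT2 and PCYT2 turn blue in hypoxia and more so in APOA4-KO, whereas FADS2, ELOVL6, GK and LPIN2 are red there.

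Promoter sequences were looked up for the members in a RefSeq table on build GRCh38.p14, which gives 300 bases, from 250 before to 50 after a transcription start; 33 of the 43 members had 53 starts there. FASN, HSD17B12, GPAT4, AGPAT5, LPIN3, DGAT1, DGAT2, MGLL, GPD1 and LPCAT2 were not in it. The motifs searched, 5 in all, were read on both strands: TCACNCCAC, a sterol regulatory element; CCAAT, bound by NF-Y; GGGCGG, bound by Sp1; ACGTG, the core of the hypoxia response element; and CACGTG, an E-box that contains ACGTG. The sterol element was in none of the members' 53 promoters and in 1.13% of all 35116. CCAAT was in 47.2% of the members' promoters and 34.6% of all, GGGCGG in 71.7% and 45%, ACGTG in 26.4% and 21.4%, and CACGTG in 5.66% and 7.26%. A member with several starts is counted for each of them, so these are shares of starts and not of genes. Shown are 6 members that passed both limits and had at least 500 counts on average. For each, the listed start with the most bases inside matches is printed in lower case, with every match in capitals. FADS2 (chr11:61816154-61816453, plus strand), whose excess in APOA4-KO was the largest at 0 h, holds a CCAAT and a GGGCGG. ELOVL6 (chr4:110198566-110198865, minus strand) holds a GGGCGG and an ACGTG. GK (chrX:30653173-30653472, plus strand) holds 1 CCAAT and 3 GGGCGG. AGPAT2 (chr9:136687408-136687707, minus strand) holds 7 GGGCGG and none of the other motifs. LPIN2 (chr18:3013095-3013394, minus strand), which was higher in hypoxia in both lines, holds 5 GGGCGG and 1 CACGTG, which reads as ACGTG on either strand. PCYT2 (chr17:81911350-81911649, minus strand), which was lower in hypoxia in both lines, holds 3 CCAAT and 7 GGGCGG.
FADS2: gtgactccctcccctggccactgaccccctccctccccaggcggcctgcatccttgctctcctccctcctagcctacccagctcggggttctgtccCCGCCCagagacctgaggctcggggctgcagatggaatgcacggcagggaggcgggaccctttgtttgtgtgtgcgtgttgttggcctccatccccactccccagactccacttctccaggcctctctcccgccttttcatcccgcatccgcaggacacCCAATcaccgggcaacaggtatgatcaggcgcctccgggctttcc
ELOVL6: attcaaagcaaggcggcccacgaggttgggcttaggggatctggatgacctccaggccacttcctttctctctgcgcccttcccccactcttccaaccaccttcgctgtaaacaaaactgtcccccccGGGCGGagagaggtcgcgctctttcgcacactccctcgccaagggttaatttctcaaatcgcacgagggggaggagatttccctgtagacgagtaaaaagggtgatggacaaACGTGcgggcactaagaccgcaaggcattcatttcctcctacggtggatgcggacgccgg
GK: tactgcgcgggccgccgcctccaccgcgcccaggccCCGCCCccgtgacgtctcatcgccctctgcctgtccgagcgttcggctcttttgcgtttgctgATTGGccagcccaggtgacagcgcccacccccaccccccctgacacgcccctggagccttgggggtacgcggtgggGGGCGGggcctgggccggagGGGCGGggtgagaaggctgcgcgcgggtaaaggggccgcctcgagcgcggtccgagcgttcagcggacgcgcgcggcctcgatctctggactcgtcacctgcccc
AGPAT2: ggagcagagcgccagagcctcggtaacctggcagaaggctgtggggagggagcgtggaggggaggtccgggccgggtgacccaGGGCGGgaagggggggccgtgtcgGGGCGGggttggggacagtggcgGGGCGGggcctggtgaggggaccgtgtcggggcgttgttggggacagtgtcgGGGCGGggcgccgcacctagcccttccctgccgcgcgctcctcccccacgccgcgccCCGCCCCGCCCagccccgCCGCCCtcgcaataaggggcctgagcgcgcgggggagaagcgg
LPIN2: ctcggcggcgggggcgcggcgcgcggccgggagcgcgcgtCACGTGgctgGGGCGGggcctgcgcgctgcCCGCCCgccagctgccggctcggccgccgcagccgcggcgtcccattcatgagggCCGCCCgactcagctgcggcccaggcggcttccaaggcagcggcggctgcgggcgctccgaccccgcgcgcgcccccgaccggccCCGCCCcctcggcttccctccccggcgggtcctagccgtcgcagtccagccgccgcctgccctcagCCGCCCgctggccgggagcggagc
PCYT2: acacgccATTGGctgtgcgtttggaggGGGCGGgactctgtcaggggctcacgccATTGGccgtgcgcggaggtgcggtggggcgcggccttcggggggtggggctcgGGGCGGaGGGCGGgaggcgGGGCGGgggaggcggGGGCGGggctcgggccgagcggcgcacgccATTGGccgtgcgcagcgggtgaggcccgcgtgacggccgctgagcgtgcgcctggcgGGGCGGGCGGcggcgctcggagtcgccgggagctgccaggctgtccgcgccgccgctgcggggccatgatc

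Of the 5 genes of fatty acid synthesis, 3 were higher in APOA4-KO at 0 h (ACLY, ACACA and FASN) and 2 did not pass the test (ACACB and ME1). Of all genes tested, 12.9% were called higher there. From 0 h, 4 of the 5 were lower in HepG2 at 24 h and at 48 h, 3 in APOA4-KO at 24 h and 4 in APOA4-KO at 48 h, and none was called higher. Called lower in these comparisons were 18.3% and 14.6% of all genes in HepG2, and 22.8% and 25.9% in APOA4-KO. FASN, the synthase that makes palmitate, had 1959.9, 1933 and 1948 CPM at 0 h, 1749, 1662 and 1712 CPM at 24 h and 1341, 1333 and 1319 CPM at 48 h in HepG2. In APOA4-KO it had 2299, 2263 and 2249.8 CPM at 0 h, 1476, 1335 and 1443 CPM at 24 h and 1658, 1679 and 1739 CPM at 48 h. The edited line thus started above HepG2, lay below it at 24 h and above it again at 48 h, with no overlap between the libraries of the lines at any time. The differences between the lines were 0.22 ± 0.03 (log2, SE), -0.27 ± 0.03 and 0.35 ± 0.03, with adjusted p = 4.5e-06, 1.2e-07 and 3.2e-09. From 0 h to 24 h FASN fell by 0.19 on the log2 scale in HepG2 and by 0.68 in APOA4-KO, and this difference in the change was called (-0.49 ± 0.04, adjusted p = 1.8e-08). At 48 h the difference in the change had turned to 0.12 ± 0.04 (adjusted p = 0.017), and this call was lost without APOA4-KO 48 h replicate 3 (0.10, adjusted p = 0.052). It was -0.05, not called, when libraries were scaled by their totals alone.

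ACACA, the acetyl-CoA carboxylase of the cytosol, had 121, 116 and 121 CPM at 0 h, 101, 99.1 and 102 CPM at 24 h and 99.0, 104 and 99.9 CPM at 48 h in HepG2. The edited line had 131, 132 and 131 CPM at 0 h, 126, 123 and 128 CPM at 24 h and 84.0, 84.5 and 92.9 CPM at 48 h. It was higher than HepG2 at 0 h and 24 h and lower at 48 h (-0.21 ± 0.04, adjusted p = 5.6e-05), without overlap of libraries. ACACA fell in HepG2 at both times (-0.24 and -0.24) and in APOA4-KO at 48 h (-0.59 ± 0.04, adjusted p = 6.0e-11), while its value at 24 h in APOA4-KO was -0.07 ± 0.04 (adjusted p = 0.158). ACLY was higher in APOA4-KO at the 3 times, by 0.16, 0.24 and 0.26, and fell in both lines, by 0.39 in HepG2 and by 0.29 in APOA4-KO over 48 h. ACACB, the carboxylase of the mitochondrial surface, whose malonyl-CoA restrains fatty acid oxidation, fell by 0.50 in HepG2 and by 0.51 in APOA4-KO over 48 h, and its differences between the lines, 0.19, 0.19 and 0.18, did not pass the test. ME1, the cytosolic malic enzyme that yields NADPH, had 0.19, 0.206 and 0.337 CPM at 0 h, 0.208, 0.473 and 0.0968 CPM at 24 h and 0, 0.142 and 0.165 CPM at 48 h in HepG2. In APOA4-KO the values of ME1 were 0.391, 0.589 and 0.875 CPM at 0 h, 0.723, 0.18 and 0.407 CPM at 24 h and 0.333, 0.211 and 0.389 CPM at 48 h. At these levels no difference in ME1 was detectable, although the 3 edited libraries lay above the HepG2 libraries at 0 h and 48 h (1.59 ± 0.84, adjusted p = 0.129).

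The desaturases were higher in the edited line. Of the 4 genes, SCD, FADS1 and FADS2 were called higher in APOA4-KO at each of the 3 times, as were 6.72% of all genes tested. SCD5 had no more than 54 counts in any library. FADS2, the delta-6 desaturase that begins the synthesis of long polyunsaturated chains (chr11:61792980-61867354, plus strand, GRCh38), had 57.4, 56.9 and 59.3 CPM at 0 h, 52.3, 49.3 and 46.0 CPM at 24 h and 46.8, 46.7 and 45.6 CPM at 48 h in HepG2. APOA4-KO had 344, 346 and 337 CPM at 0 h, 225, 214 and 232 CPM at 24 h and 133, 134 and 136 CPM at 48 h. Every edited library lay above every HepG2 library, by 5.91-fold at 0 h (2.56 ± 0.04, adjusted p = 1.4e-18), 4.54-fold at 24 h (2.18) and 2.9-fold at 48 h (1.53). The excess narrowed as FADS2 fell further in APOA4-KO, by 1.35 on the log2 scale over 48 h against 0.32 in HepG2, and the difference in the change was -1.03 ± 0.05 (adjusted p = 2.3e-11). FADS1, the delta-5 desaturase, lies within the annotated span of FADS2 and is read in the opposite direction (chr11:61799625-61829318, minus strand). It was higher in APOA4-KO by 0.50, 0.55 and 0.19, so the excess of these overlapping genes was of unequal size. At 48 h the excess of FADS1 was 0.04, not called, with libraries scaled by their totals alone and on the deposited FPKM (adjusted p up to 0.251). The annotated exons of FADS1 and FADS2 share 5.57% and 4.89% of their bases with other genes, and it is not stated whether reads were counted by strand.

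SCD had 1972, 1958 and 1981 CPM at 0 h, 2245, 2221 and 2258 CPM at 24 h and 2012, 2054 and 2026 CPM at 48 h in HepG2. In APOA4-KO it reached 2533, 2523 and 2532 CPM at 0 h, 3481, 3574 and 3469 CPM at 24 h and 2294, 2357 and 2399.5 CPM at 48 h. It rose at 24 h in both lines, and more in APOA4-KO (0.47 against 0.19, difference 0.29 ± 0.02, adjusted p = 8.2e-09). By 48 h SCD in APOA4-KO was below its 0 h level (-0.11), and in HepG2 it differed from 0 h by 0.04 (adjusted p = 0.039, up to 0.076 under the alternatives). SCD stayed above HepG2 in all 9 edited libraries at their respective times, by 0.36, 0.65 and 0.21.

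Elongation was divided between genes. Between the lines at 48 h, 3 of its 6 genes were higher in APOA4-KO and 2 lower, against 23.5% and 27.3% of all genes. Their median was 0.13, beside -0.04 over all genes. ELOVL6, which lengthens palmitate and palmitoleate (chr4:110045846-110199199, minus strand), had 9.81, 11.7 and 11.1 CPM at 0 h, 10.7, 11.0 and 11.2 CPM at 24 h and 8.55, 9.33 and 7.75 CPM at 48 h in HepG2. In APOA4-KO its values were 29.5, 31.4 and 33.9 CPM at 0 h, 25.9, 25.4 and 24.6 CPM at 24 h and 22.9, 22.6 and 21.8 CPM at 48 h. The lowest edited library lay well above the highest HepG2 library at each time, and the excess was 2.91-fold at 0 h (1.54 ± 0.07, adjusted p = 9.4e-12), 2.31-fold at 24 h and 2.62-fold at 48 h. ELOVL6 fell over 48 h in both lines, by 0.35 and by 0.50, and this pair of changes was not called different (-0.15 ± 0.10, adjusted p = 0.301). ELOVL1, an elongase of saturated very long chains, went the other way: it was lower in APOA4-KO at each time (-0.43, -0.80 and -0.94) and fell further there in hypoxia (difference in the change at 48 h -0.51 ± 0.05, adjusted p = 2.1e-07). ELOVL5, an elongase of polyunsaturated chains, fell in HepG2 (-0.26 and -0.15) and rose in APOA4-KO (0.14 and 0.25), and the difference in the change was called at 24 h (0.40 ± 0.06) and at 48 h (0.41 ± 0.06). The fall of ELOVL5 in HepG2 at 48 h lost its call without HepG2 0 h replicate 1 or 2 or HepG2 48 h replicate 1 (adjusted p up to 0.060). Its rise in APOA4-KO at 48 h ranged from 0.09 to 0.3 over the alternatives. The call of that rise was not kept in all of them (adjusted p up to 0.068 over fits with edgeR, DESeq2 or limma). ELOVL2, which acts after ELOVL5 on the same chains, was higher in APOA4-KO at 0 h (0.31) and at 24 h (0.60), and at 48 h its libraries overlapped between the lines (-0.01). TECR, the last reductase of the elongation cycle, was lower in APOA4-KO at 24 h (-0.57) and 48 h (-0.20), whereas HSD17B12, the first reductase, was higher at all 3 times, at most by 0.62 at 24 h.

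The regulators tested, SREBF1 and MLXIPL, differed by less than 1 on the log2 scale in every comparison. SREBF1, which encodes the transcription factor that drives many genes of fatty acid synthesis, had 116, 111 and 116 CPM at 0 h, 110.1, 108 and 105 CPM at 24 h and 121, 124 and 119.6 CPM at 48 h in HepG2. In APOA4-KO it had 104, 99.4 and 98.4 CPM at 0 h, 83.2, 80.8 and 90.2 CPM at 24 h and 79.7, 83.9 and 81.7 CPM at 48 h. It was lower in the edited line at each time (-0.19 ± 0.04, -0.35 ± 0.04 and -0.57 ± 0.04), and the libraries did not overlap. In HepG2 the changes from 0 h did not pass the test (-0.09 and 0.09, adjusted p = 0.106 and 0.111), in APOA4-KO SREBF1 fell by 0.25 and by 0.30, and at 48 h the difference was called (-0.38 ± 0.05, adjusted p = 1.3e-05). MLXIPL, the carbohydrate-responsive factor ChREBP, had 105, 108.95 and 107 CPM at 0 h, 72.8, 70.7 and 71.8 CPM at 24 h and 70.9, 71.5 and 69.6 CPM at 48 h in HepG2. APOA4-KO gave 101, 99.9 and 101 CPM at 0 h, 55.1, 53.4 and 56.8 CPM at 24 h and 82.6, 85.7 and 84.9 CPM at 48 h. In HepG2 it fell by 0.58 at 24 h and by 0.60 at 48 h, and in APOA4-KO by 0.87 and by 0.26, each from 0 h. The edited line was consequently below HepG2 at 24 h (-0.38 ± 0.03, adjusted p = 2.8e-09) and above it at 48 h (0.26 ± 0.03, adjusted p = 5.4e-07). THRSP, a small nuclear protein tied to lipogenesis and thyroid hormone, was read in HepG2 at 0, 4 and 0 counts before hypoxia, at 0, 6 and 4 counts after 24 h and at 0 in the 3 libraries of 48 h. Its APOA4-KO libraries gave 0 counts before hypoxia, then 6, 0 and 0 counts after 24 h, and 4, 8 and 3 counts after 48 h, too few for a test.

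Of the genes that supply glycerol 3-phosphate, GPD1 was lower and GK higher in the edited line at every time. GPD1, the cytosolic dehydrogenase that makes it from a glycolytic intermediate (chr12:50103819-50111319, plus strand), had 17.1, 17.7 and 15.5 CPM at 0 h, 8.34, 7.99 and 9.08 CPM at 24 h and 10.6, 12.8 and 12.9 CPM at 48 h in HepG2. In the edited line GPD1 had 11.0, 10.1 and 10.7 CPM at 0 h, 3.09, 2.47 and 2.71 CPM at 24 h and 2.53, 2.31 and 2.13 CPM at 48 h. All edited libraries lay below the HepG2 libraries of the same time, by 1.59-fold at 0 h (-0.67 ± 0.10, adjusted p = 3.9e-05), 3.07-fold at 24 h (-1.62) and 5.2-fold at 48 h (-2.38 ± 0.11, adjusted p = 1.0e-12). GPD1 fell in both lines, and over 48 h it fell by 0.47 in HepG2 and by 2.19 in APOA4-KO, with a called difference of -1.71 ± 0.15 (adjusted p = 2.1e-08). GK, glycerol kinase, which makes the same product from free glycerol (chrX:30653359-30731456, plus strand), had 24.7, 27.7 and 28.0 CPM at 0 h, 52.5, 49.8 and 51.5 CPM at 24 h and 37.1, 38.9 and 38.6 CPM at 48 h in HepG2. Its values in APOA4-KO were 46.5, 46.9 and 47.2 CPM at 0 h, 106, 112 and 108 CPM at 24 h and 84.1, 87.4 and 81.7 CPM at 48 h. GK was higher in the edited line without overlap, by 1.75-fold, 2.11-fold and 2.21-fold, and it rose at 24 h in both lines, by 0.94 in HepG2 and 1.21 in APOA4-KO. Within APOA4-KO at 48 h, therefore, GPD1 was 4.55-fold below and GK 1.8-fold above its own 0 h level. GPD1L, the other cytosolic dehydrogenase, was lower in APOA4-KO at each time (-0.31, -0.56 and -0.22) and fell at 24 h in both lines, with uncalled values of -0.11 and -0.02 at 48 h. Its difference between the lines at 48 h lost its call without HepG2 48 h replicate 1 (adjusted p = 0.062) or APOA4-KO 48 h replicate 2 (adjusted p = 0.058).

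The acyltransferases that build phosphatidate differed in direction. Of 8 genes, 1 was higher and 4 were lower in APOA4-KO at 0 h (12.5% and 50%), against 12.9% and 17.6% of all genes. At 48 h, 2 were higher and 3 lower (25% and 37.5%), against 23.5% and 27.3% of all genes. GPAM, the mitochondrial glycerol phosphate acyltransferase, had 68.6, 71.4 and 73.8 CPM at 0 h, 48.8, 46.8 and 56.1 CPM at 24 h and 50.1, 53.9 and 54.4 CPM at 48 h in HepG2. The edited line had 70.0, 68.4 and 75.8 CPM at 0 h, 66.3, 74.5 and 68.3 CPM at 24 h and 49.4, 45.8 and 50.3 CPM at 48 h. Its libraries overlapped between the lines at 0 h and 48 h and were higher in APOA4-KO at 24 h (0.46 ± 0.06, adjusted p = 4.9e-06): GPAM fell at 24 h in HepG2 (-0.50) and not detectably in APOA4-KO (-0.03 ± 0.06), and at 48 h it was lower in both lines (-0.43 and -0.56). GPAT3 rose in APOA4-KO at 48 h (0.56), and GPAT4 was lower in APOA4-KO at 0 h (-0.33) and 48 h (-0.34); both enzymes carry out the same step at the endoplasmic reticulum.

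AGPAT2, a lysophosphatidate acyltransferase whose loss causes congenital lipodystrophy (chr9:136673143-136687423, minus strand), had 40.6, 40.7 and 42.2 CPM at 0 h, 41.7, 40.2 and 42.1 CPM at 24 h and 51.5, 53.5 and 54.3 CPM at 48 h in HepG2. In APOA4-KO the values were 22.9, 23.2 and 20.9 CPM at 0 h, 25.1, 22.1 and 26.5 CPM at 24 h and 68.9, 68.4 and 64.9 CPM at 48 h. In APOA4-KO no change was called from 0 h to 24 h (0.14 ± 0.06), when the edited line lay 1.84-fold and 1.68-fold below HepG2; at 48 h it lay above HepG2 (0.34 ± 0.06, adjusted p = 3.1e-05). AGPAT2 rose over 48 h by 0.37 in HepG2 and by 1.59 in APOA4-KO, a difference of 1.22 ± 0.08 (adjusted p = 4.9e-10). AGPAT5, an acyltransferase of the mitochondrial outer membrane, had 14.8, 14.8 and 13.5 CPM at 0 h, 16.3, 16.2 and 16.5 CPM at 24 h and 26.5, 27.1 and 24.3 CPM at 48 h in HepG2. APOA4-KO had 15.8, 17.5 and 17.01 CPM at 0 h, 38.2, 42.8 and 39.3 CPM at 24 h and 23.7, 25.4 and 23.1 CPM at 48 h. It rose in both lines, but it peaked at 24 h in APOA4-KO and was highest at 48 h in HepG2, so that the lines differed by 2.45-fold at 24 h (1.29 ± 0.06, adjusted p = 2.1e-12) and overlapped at 48 h (-0.11). The difference in its change was 1.07 ± 0.09 at 24 h and -0.33 ± 0.09 at 48 h, both called and of opposite sign. The small rise of AGPAT5 in HepG2 at 24 h (0.18) was lost in 4 of the fits that left out a library, namely HepG2 0 h replicate 3 or any HepG2 24 h library (adjusted p up to 0.148), and its excess in APOA4-KO at 0 h (0.22) without HepG2 0 h replicate 3 or APOA4-KO 0 h replicate 2 (up to 0.069). AGPAT1 and AGPAT3 were lower in APOA4-KO at each time, by at most 0.30 and 0.32 in size, and fell in hypoxia in both lines. Of AGPAT1's exon bases, 30.2% are shared with other annotated genes.

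AGPAT4 was measured at the limit of these data. Its values were 0.391, 0.339 and 0.277 CPM at 0 h, 0.325, 0.439 and 0.363 CPM at 24 h and 0.085, 0 and 0.0772 CPM at 48 h in HepG2. In APOA4-KO they were 0.593, 0.778 and 0.322 CPM at 0 h, 0.806, 0.18 and 0.333 CPM at 24 h and 0.43, 0.317 and 0.25 CPM at 48 h. The 3 HepG2 libraries at 48 h, with 8, 0 and 7 counts, were the lowest, and with them AGPAT4 was called lower in HepG2 over 48 h (-2.58 ± 0.74, adjusted p = 0.013) and higher in APOA4-KO at 48 h (2.57 ± 0.74, adjusted p = 0.007). Both calls depend on the fit: the first was lost when the groups of each comparison were fitted alone (adjusted p = 0.056), and both were lost on log2(FPKM + 1) without a filter, where the difference between the lines was 0.02. Over all alternatives the adjusted p ranged from 4.3e-04 to 0.406 for the first and from 2.3e-04 to 0.302 for the second (edgeR, DESeq2 or limma).

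The phosphatidate phosphatases parted ways. LPIN2, the lipin most abundant in liver (chr18:2916994-3013315, minus strand), had 91.8, 95.4 and 95.1 CPM at 0 h, 112, 114 and 114 CPM at 24 h and 110.2, 115 and 113 CPM at 48 h in HepG2. In APOA4-KO it had 88.8, 84.4 and 84.7 CPM at 0 h, 175, 193 and 184 CPM at 24 h and 237, 238 and 237 CPM at 48 h. The edited line was slightly below HepG2 at 0 h (-0.13), and above it, with no overlap, by 1.62-fold at 24 h (0.70 ± 0.03, adjusted p = 1.5e-12) and 2.11-fold at 48 h (1.07 ± 0.03, adjusted p = 2.0e-15). LPIN2 rose in HepG2 by 0.27 and 0.26, and in APOA4-KO by 1.10 and 1.47, and the difference in the change was called at both times (0.83 ± 0.05 and 1.21 ± 0.05). LPIN1 had 22.2, 19.6 and 22.9 CPM at 0 h, 17.6, 15.6 and 15.6 CPM at 24 h and 17.99, 16.8 and 17.2 CPM at 48 h in HepG2. APOA4-KO had 19.6, 20.6 and 22.4 CPM at 0 h, 22.2, 21.8 and 18.5 CPM at 24 h and 13.6, 14.0 and 15.7 CPM at 48 h. LPIN1 fell in HepG2 at both times (-0.41 and -0.31) and in APOA4-KO at 48 h (-0.53), and its libraries at 0 h overlapped between the lines. At 24 h LPIN1 was called higher in APOA4-KO, by 0.25 to 0.46 over the alternatives (adjusted p up to 0.008, edgeR, DESeq2 or limma). The difference in its change at 24 h was called too (0.27 to 0.5, adjusted p up to 0.030 over the same fits). At 48 h LPIN1 was lower in APOA4-KO, and that call was lost under some alternatives (up to 0.067). LPIN3 was lower in APOA4-KO at the 3 times (-0.24, -0.19 and -0.44), and its values over 48 h were 0.02 in HepG2, not called, and -0.19 in APOA4-KO. Calls of both genes were easily lost: that of LPIN1 in HepG2 at 48 h without HepG2 0 h replicate 1 or 3 (adjusted p up to 0.062), that of LPIN3 between the lines at 0 h without HepG2 0 h replicate 1 or APOA4-KO 0 h replicate 2 (up to 0.096), at 24 h without any of 6 libraries (up to 0.092), and over 48 h in APOA4-KO without any of 10 (up to 0.168).

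**Figure D3:**
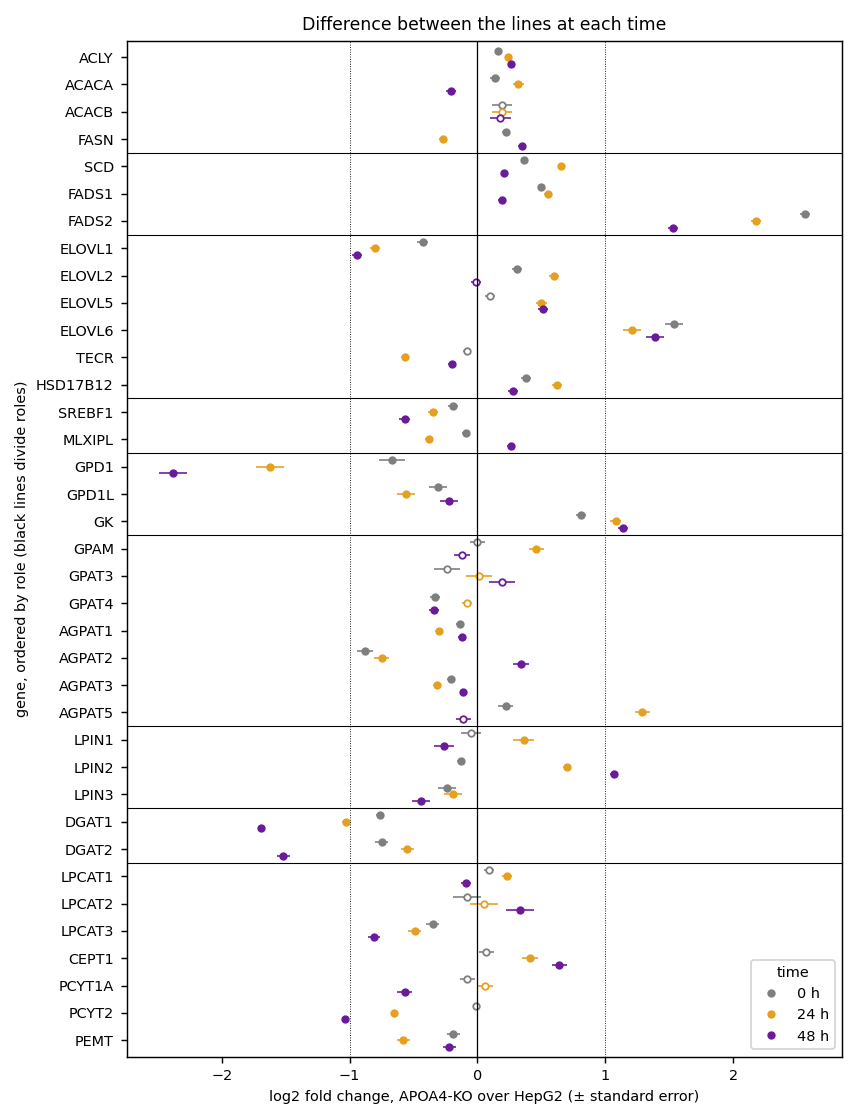
Log2 fold change of APOA4-KO over HepG2 (± standard error) at 0 h, 24 h and 48 h for the 37 members with at least 500 counts on average, ordered by role; filled points have an adjusted p under 0.05, open points do not, and dotted lines mark an absolute value of 1. FADS2, ELOVL6 and GK lie to the right at every time, GPD1, DGAT1 and DGAT2 lie to the left, and LPIN2 and PCYT2 lie within 0.13 of 0 at 0 h and part from it in hypoxia.

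Both genes of the last step of triglyceride synthesis were lower in the edited line at every time and lower in hypoxia than at 0 h in both lines. DGAT1, which esterifies diacylglycerol at the endoplasmic reticulum, had 215, 218 and 213 CPM at 0 h, 82.5, 83.4 and 87.6 CPM at 24 h and 156, 149.6 and 156 CPM at 48 h in HepG2. In APOA4-KO it had 129.7, 125 and 126 CPM at 0 h, 41.2, 39.8 and 43.2 CPM at 24 h and 48.2, 46.4 and 48.5 CPM at 48 h. The groups were apart at each time, the edited line lying 1.7-fold lower at 0 h (-0.76 ± 0.03, adjusted p = 3.0e-12), 2.04-fold lower at 24 h (-1.03 ± 0.03, adjusted p = 2.0e-14) and 3.22-fold lower at 48 h (-1.69 ± 0.03, adjusted p = 9.0e-18). DGAT2, an unrelated enzyme with the same reaction that also works at lipid droplets (chr11:75759512-75801535, plus strand), had 145, 146 and 146 CPM at 0 h, 68.3, 66.5 and 66.2 CPM at 24 h and 108.74, 111 and 107 CPM at 48 h in HepG2. The edited line had 91.9, 86.1 and 82.4 CPM at 0 h, 42.8, 46.9 and 47.3 CPM at 24 h and 37.2, 40.4 and 36.3 CPM at 48 h. Here too the libraries did not overlap, and the edited line was lower by 1.68-fold, 1.47-fold and 2.88-fold (-1.52 ± 0.05, adjusted p = 3.3e-15 at 48 h). In HepG2 the 2 genes had their lowest values at 24 h, with falls of 1.35 and 1.12, and their 48 h libraries lay above all 24 h libraries, at falls of 0.49 and 0.42 from 0 h. In APOA4-KO the falls were 1.62 and 0.93 at 24 h and 1.41 and 1.19 at 48 h. The difference between the lines in the 48 h change was called for DGAT1 (-0.93 ± 0.05, adjusted p = 1.8e-11) and for DGAT2 (-0.78 ± 0.07, adjusted p = 1.7e-08), whereas at 24 h it was smaller and of opposite sign in the pair (-0.27 and 0.20), the value of DGAT2 losing its call without HepG2 24 h replicate 2 or 3, APOA4-KO 0 h replicate 3 or APOA4-KO 24 h replicate 2 (adjusted p up to 0.066). Exon bases shared with other annotated genes are 11.1% for DGAT1 and 6.83% for DGAT2.

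**Figure D4:**
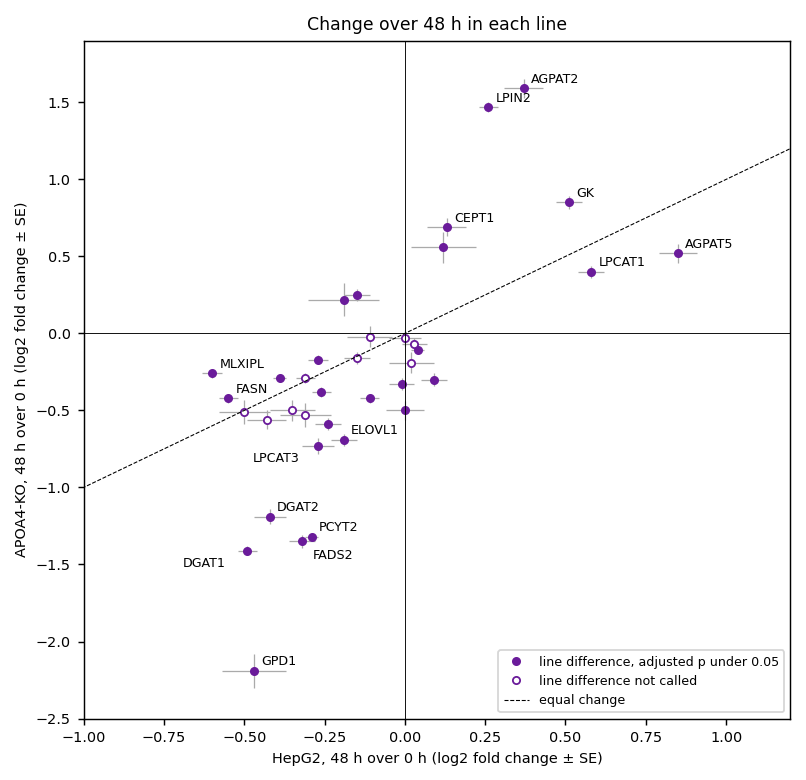
Log2 fold change from 0 h to 48 h in HepG2 (horizontal) and in APOA4-KO (vertical), with standard errors, for 37 members; filled points have a called difference between the lines in this change, and the dashed line marks an equal change. GPD1, DGAT1, DGAT2, FADS2 and PCYT2 lie far below the dashed line, and AGPAT2 and LPIN2 far above it.

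The lipases were barely expressed. LIPE, hormone-sensitive lipase, had 0, 0.0968 and 0.0964 CPM at 0 h, 0.104, 0.158 and 0.242 CPM at 24 h and 0.085, 0.107 and 0 CPM at 48 h in HepG2. In APOA4-KO its values were 0.278, 0.189 and 0 CPM at 0 h, 0.118, 0.0514 and 0 CPM at 24 h and 0.305, 0.211 and 0.389 CPM at 48 h, and no comparison called it. MGLL, which cleaves monoglycerides, had 0.818, 0.895 and 0.711 CPM at 0 h, 0.624, 0.506 and 0.496 CPM at 24 h and 0.191, 0.475 and 0.551 CPM at 48 h in HepG2. In APOA4-KO it had 2.46, 1.6 and 2.35 CPM at 0 h, 2.23, 0.604 and 0.58 CPM at 24 h and 0.527, 0.541 and 0.751 CPM at 48 h. The 3 edited libraries at 0 h lay above those of HepG2 (1.40 ± 0.45, adjusted p = 0.023), and MGLL fell in APOA4-KO over 48 h (-1.81 ± 0.46, adjusted p = 0.0027). A single library held most of the MGLL counts of APOA4-KO at 24 h (188, against 47 and 47), and the call at 0 h was lost without any of the 0 h libraries other than APOA4-KO replicate 2 (adjusted p up to 0.080).

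Of 7 genes of phospholipid synthesis, 2 were higher and 5 lower in the edited line at 48 h, where 23.5% and 27.3% of all genes were, with a median of -0.22. One of the 5, LPCAT1 (-0.09, adjusted p = 0.046), lost its call in 12 of the fits that left out a library (adjusted p up to 0.132) and with other scalings and tools (up to 0.421). PCYT2, which activates ethanolamine in the rate-limiting step of phosphatidylethanolamine synthesis (chr17:81900965-81911464, minus strand), had 503, 495 and 499 CPM at 0 h, 331, 322 and 322 CPM at 24 h and 408, 412 and 403 CPM at 48 h in HepG2. In APOA4-KO it had 509, 492 and 488 CPM at 0 h, 207, 201 and 215 CPM at 24 h and 196, 200.4 and 198 CPM at 48 h. The libraries of the lines overlapped at 0 h (-0.01 ± 0.02) and were apart in hypoxia, where the edited line was 1.56-fold lower at 24 h (-0.65 ± 0.02, adjusted p = 6.8e-14) and 2.06-fold lower at 48 h (-1.04 ± 0.02, adjusted p = 4.3e-17). PCYT2 fell in both lines, and the difference in the change was -0.64 ± 0.03 and -1.03 ± 0.03. Annotated exons of other genes share 28.1% of its exon bases. PCYT1A, which activates choline in the matching step for phosphatidylcholine, had 37.7, 36.1 and 37.6 CPM at 0 h, 34.1, 32.7 and 32.3 CPM at 24 h and 38.1, 35.9 and 37.2 CPM at 48 h in HepG2. The values in APOA4-KO were 36.3, 34.8 and 34.3 CPM at 0 h, 32.3, 35.3 and 35.7 CPM at 24 h and 22.9, 24.4 and 27.4 CPM at 48 h. The 3 edited libraries at 48 h lay below the other 15: PCYT1A was lower there than in HepG2 (-0.57 ± 0.06, adjusted p = 6.7e-08) and fell by 0.50 from 0 h in APOA4-KO, while in HepG2 the 48 h value was -0.00 (adjusted p = 0.988).

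CEPT1, which joins the activated head groups to diacylglycerol, was higher in APOA4-KO at 24 h (0.41) and 48 h (0.64) and rose there by 0.69 over 48 h, against 0.13 in HepG2, which was not called (difference 0.56 ± 0.09, adjusted p = 5.6e-05). PEMT, which methylates phosphatidylethanolamine to phosphatidylcholine, was lower in APOA4-KO at each time, most at 24 h (-0.58). LPCAT3, which places polyunsaturated chains on lysophosphatidylcholine, was lower in APOA4-KO (-0.35, -0.49 and -0.81) and fell in both lines. Since 65.6% of its exon bases lie in exons of EMG1, which overlaps it, its counts are uncertain, and lesser overlaps of 21.6%, 13.5% and 12.5% apply to HSD17B12, LPIN3 and CEPT1. LPCAT1, which favours saturated chains, rose in both lines, by 0.58 in HepG2 and 0.40 in APOA4-KO over 48 h, and LPCAT2 was called higher in APOA4-KO only at 48 h (0.33 ± 0.11, adjusted p = 0.015), a call that was lost without HepG2 48 h replicate 2 (adjusted p = 0.051) and, with library totals alone or on FPKM, at up to 0.309.

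Other genes of the same pathways that are not members were counted in a list of 52, of which 51 were tested. Between the lines, 9 were higher and 15 lower at 0 h, 15 higher and 20 lower at 24 h, and 17 higher and 18 lower at 48 h, where their median was 0.01; the shares of all genes at these times were 12.9% and 17.6%, 23.6% and 24.6%, and 23.5% and 27.3%. From 0 h, 6 were higher and 16 lower in HepG2 at 24 h, 6 higher and 18 lower at 48 h, whereas in APOA4-KO 11 were higher and 20 lower at 24 h, 14 higher and 19 lower at 48 h, the shares of all genes being 11.4% and 18.3%, 13.1% and 14.6%, 21.5% and 22.8%, and 23.9% and 25.9%. Of 9 genes listed for SREBP control, 3 were higher and 3 lower in APOA4-KO at 0 h, 5 and 4 at 24 h, then 7 and 2 at 48 h, with a 48 h median of 0.36 beside -0.04 over all genes. Of 11 genes of acetyl-CoA supply and the fatty acid chain, none was higher and 2 were lower at 0 h, 4 were higher and 4 lower at 24 h, and none was higher and 7 were lower at 48 h, with a 48 h median of -0.46. The 21 further genes of phospholipid steps divided at 48 h into 6 higher and 6 lower, and the 10 of glycerolipid steps into 4 higher and 3 lower. Past both limits between the lines at 48 h were 4 of the 51 genes tested, where 13.6% of all genes were. PLD1, a phospholipase that yields phosphatidate, had a mean of 106 CPM in APOA4-KO and 46.0 in HepG2 at 48 h (1.21 ± 0.05, adjusted p = 9.0e-13). PCYT1B, the second choline-activating enzyme, had 8.68 and 26.8 CPM and was lower (-1.63 ± 0.07, adjusted p = 5.3e-13), the same direction as PCYT1A and PCYT2. ELOVL3, an elongase, was lower at means of 0.285 and 1.49 CPM (-2.37 ± 0.43, adjusted p = 1.3e-04), and INSIG1, which holds SREBP in the endoplasmic reticulum, was higher at means of 0.608 and 0.197 CPM (1.62 ± 0.59, adjusted p = 0.028), both at low counts.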

How the data were processed

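Poly(A) RNA of 18 libraries was prepared with a NEBNext Ultra RNA kit, by the study's methods, and sequenced as 150 bp pairs. Per the study's methods and the submitters' processing notes, the authors used fastp for trimming, HISAT2 and GRCh38.p13 for alignment, and Ensembl genes for counting; the methods name featureCounts and the notes StringTie. The deposited counts are whole numbers without normalization, for 61806 genes, and the deposited FPKM values are these counts per gene length and library total. Strand setting and multi-mapped reads are not given in the sources used here, and the study's fold limit (absolute log2 fold change of 1) served here for a second, stricter count, with an adjusted p under 0.05 in place of its P value.

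Here, counts (76481820 to 91604947 per library) were filtered with filterByExpr, which left 19743 genes, scaled with TMM and tested in edgeR 4.0.16 (R 4.3.3) with a quasi-likelihood model of 6 groups and Benjamini-Hochberg adjustment over all genes in each of 9 comparisons. The members and pathway lists were chosen with earlier results of these data known. Every member is named, and values per library are given for key enzymes and regulators, for members past both limits in any comparison of 2 groups, and for the member of each role with the largest difference between the lines at 48 h. Of the other pathway genes, those past both limits at 48 h between the lines are named. The procedure was tested on simulated data. Alternatives were other scalings and filters, DESeq2 1.42.0, limma 3.58.1 on log2(FPKM + pseudocount), a replicate block, fits of single comparisons and each library left out. Gene positions and shared exon bases come from GENCODE 29 (GRCh38).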

Additional observations from a re-analysis of the deposited data

Results flagged for a closer look

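The change from 0 h differed between HepG2 and APOA4-KO at an adjusted p under 0.05 (edgeR, a test of the difference itself) for 27 of the 42 members tested at 24 h and for 27 at 48 h, where 16.8% and 15.4% of all genes (24 h) and 18.6% and 17.8% (48 h) had a positive and a negative difference. At 24 h, 1 of them also had an absolute difference of at least 1 on the log2 scale: AGPAT5, with 1.07 (adjusted p = 1.8e-08), which rose by 1.26 in APOA4-KO and by 0.18 in HepG2. At 48 h there were 5. GPD1 differed by -1.71 (adjusted p = 2.1e-08), FADS2 by -1.03 (adjusted p = 2.3e-11) and PCYT2 by -1.03 (adjusted p = 3.2e-14), all of which fell further in APOA4-KO. AGPAT2 differed by 1.22 (adjusted p = 4.9e-10) and LPIN2 by 1.21 (adjusted p = 2.7e-13), both of which rose more in APOA4-KO. The test for a single outlying library within a group needs at least 4 libraries and was not run on these groups of 3.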

How the results depend on the processing

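The counts of members called stayed within 1.5 times their value in all 9 comparisons under every alternative run, with and without each library. Leaving out 1 library at a time, they ranged over 24 to 28, 31 to 34 and 30 to 33 between the lines at 0 h, 24 h and 48 h, 23 to 26 and 25 to 29 in HepG2 at 24 h and 48 h, 29 to 32 and 33 to 35 in APOA4-KO, and 23 to 27 and 24 to 27 for the difference in the change. For 4 members the sign changed of the difference in the change at 48 h, under library size alone or limma on log2(FPKM + pseudocount): ACLY -0.08 in each, FASN -0.05, AGPAT1 -0.15, and AGPAT3 -0.07 or -0.06. Of 10109 single values, 9718 kept direction and side of the threshold, 211 lost and 164 gained a call and 16 changed sign. All 41 values past both limits kept their direction, and 3 of them lost the call in 8 fits, those of MGLL at 0 h and AGPAT4 at 48 h (between the lines and within HepG2); apart from these, no call with an absolute log2 fold change above 0.44 was lost. Of the calls, 28 were lost without at least 1 library. Replicate numbers are shared between groups, and the labels do not say whether same-numbered libraries were handled together. Deviations of same-numbered libraries correlated at -0.144 to 0.051 over 45 pairs and those of others at -0.082 to 0.145 over 90, so no pairing was detectable. With the replicate number as a block, the members called were 28, 32 and 32 between the lines, 26 and 28 in HepG2, 30 and 34 in APOA4-KO, and 27 and 26 for the difference in the change, and 3 of 378 calls changed. Genes with few counts are limited by depth, and log2(FPKM + 1) shrinks low genes by its pseudocount (GPD1 between the lines at 48 h: -1.43).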
